A study of Mus musculus with 6 samples.

Results

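The genes described here are the Wnt ligands, their receptors and their antagonists, in smooth muscle cells of the mouse abdominal aorta. The cells came from controls and from mice with *Pdk4* deleted in smooth muscle, whose cultures kept some *Pdk4* RNA. Members were taken by name from the protein-coding rows of the deposited table. The rule took every numbered Wnt, Frizzled (*Fzd*), *Sfrp*, *Dkk* and *Rspo* gene, together with *Lrp5*, *Lrp6*, *Ror1*, *Ror2*, *Axin1*, *Axin2*, *Lef1*, *Tcf7*, *Wif1*, *Nkd1*, *Nkd2*, *Znrf3* and *Rnf43*. It found 54 of the 41721 genes listed and uses names alone. RNA of cultured mouse aortic smooth muscle cells (MASMCs) was sequenced in 6 libraries, 3 from Pdk4fl/fl and 3 from Pdk4SMKO mice. *Pdk4* encodes pyruvate dehydrogenase kinase 4, a mitochondrial kinase that inhibits the entry of pyruvate into the citric acid cycle. The series asked how its loss changes the transcriptome of these cells.

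Both genotypes carried *Pdk4* alleles with loxP sites around exons 4 to 6, and Pdk4SMKO mice also carried Myh11-CreERT2, a tamoxifen-inducible Cre driven by the promoter of smooth muscle myosin heavy chain. Mice of both genotypes were given tamoxifen, the controls included. The mice were described as male and were 10 weeks old when cells were isolated, the cells were used between passages 4 and 8, and the transgene is Y-linked. Both genotypes were described as C57BL/6J mice. For experiments in culture the methods give serum starvation for 48 h. The cultures of both genotypes received angiotensin II (Ang II), at a dose of 1 μM for 48 h. No library therefore shows either genotype without Ang II. The cultures are described as biological replicates, and whether each came from an animal of its own is not said, so the p-values measure the spread between these cultures.

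Wnt proteins are secreted, lipid-modified signals that bind Frizzled receptors on the cell surface. With LRP5 or LRP6 as co-receptor they stabilise β-catenin, which acts in the nucleus with TCF and LEF factors, whereas the ROR receptors carry signals that do not need β-catenin. R-spondins raise the number of Frizzled receptors by engaging the ubiquitin ligases RNF43 and ZNRF3, and secreted antagonists of the SFRP, DKK and WIF families bind Wnt proteins or their co-receptors. In the vessel wall the pathway is known for its part in smooth muscle proliferation and in the adventitia.

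The 6 libraries held from 16526044 to 22481670 counts, and a count of 3, the floor used for detection, corresponded to between 0.132 and 0.227 CPM, the count scaled to a common library total with edgeR's TMM factors. *Pdk4* had 38.0, 35.1 and 31.9 CPM in the Pdk4fl/fl libraries and 4.83, 9.06 and 6.92 CPM in the Pdk4SMKO libraries. Libraries of one genotype had a correlation of log2 CPM of at least 0.981, and libraries of different genotypes one of at most 0.748. *Xist*, the RNA of the inactive X chromosome of female cells, had 0.200, 0.220 and 0.378 CPM in the Pdk4fl/fl libraries and 26.8, 17.3 and 15.7 CPM in the Pdk4SMKO libraries, although the mice were described as male. No member lies on the X chromosome. *Xist* split the libraries exactly as genotype did. For every member, a difference that goes with *Xist* thus cannot be told apart from one that goes with genotype. Of the smooth muscle markers, *Myh11* was at a mean of 0.613 CPM in Pdk4fl/fl and 2.39 CPM in Pdk4SMKO cultures, so a defining marker was low in both, while the summed level of the 7 markers ran from 770 to 798 CPM and from 715 to 945 CPM. All 7 were called, 4 higher (*Acta2* from a mean of 233 to 701 CPM) and 3 lower (*Tagln* from 253 to 52.7, *Smtn* from 280.0 to 57.5 and *Cnn1* from 19.5 to 6.88 CPM). All 7 tested mesothelial markers were higher in Pdk4SMKO cultures (sum 74.0 to 99.9 CPM in Pdk4fl/fl and 722 to 1324 CPM in Pdk4SMKO), as were 4 of 6 fibroblast markers (608 to 850 CPM and 5418 to 7430 CPM). The endothelial sum was 12.5 to 21.6 CPM in Pdk4fl/fl and 2.24 to 4.65 CPM in Pdk4SMKO, most of it *Kdr*, the 1 of 6 that was tested (lower), with *Cdh5*, *Emcn* and *Tie1* at means of at most 0.033 CPM. The macrophage sum was 21.4 to 38.0 CPM and 9.71 to 30.5 CPM, yet 5 of 6 tested markers were higher (*C1qa*, *C1qb*, *Adgre1* and *Tyrobp* from 0 counts to means of 0.950 to 4.32 CPM, and *Csf1r* from 0.168 to 3.27 CPM) and *Cd68*, most of the Pdk4fl/fl sum, was lower (31.2 to 4.29 CPM). The epithelial sum, nearly all of it *Cdh1*, was 1.74 to 3.20 CPM in Pdk4fl/fl and 49.2 to 109 CPM in Pdk4SMKO libraries, with *Epcam* near 0. The part of these differences in the results below was not tested. In bulk RNA, fewer cells of a type and less RNA per cell cannot be told apart.

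Of the 54 members, 49 had at least 1 count and 34 passed the filter on low counts. Calling a gene higher or lower required a fold change of 2 or more and a p under 0.05 in the quasi-likelihood test of edgeR. The p was taken after Benjamini-Hochberg adjustment over the 14085 genes tested. The standard error (SE) beside a log2 fold change was derived from that test. It is the size of the log2 fold change divided by the square root of its F statistic. Among the 34, 22 were higher in Pdk4SMKO cultures, 3 were lower and 9 were not called. The same rule called 59.3% of all genes tested, 32.8% as higher and 26.5% as lower, while it called 73.5% of the tested members, 64.7% as higher and 8.82% as lower. The median log2 fold change was 2.36 over the tested members and 0.12 over all genes tested. The 3 libraries of one genotype lay wholly above the 3 of the other for 29 of the 34 (85.3%), a share near the 81.8% of all genes tested. A member that passed the filter only through the genotype in which it was high had to differ, so these shares describe the tested members and not the family. All 8 tested Frizzled receptors were higher, and the 3 lower genes were a Wnt ligand, an R-spondin and a transcription factor. With library size alone as the scaling, the median of all genes moved to 0.72, and the calls were then 25 higher and 3 lower among the members, against 6184 higher and 2390 lower genes in all.

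**Figure D1:**
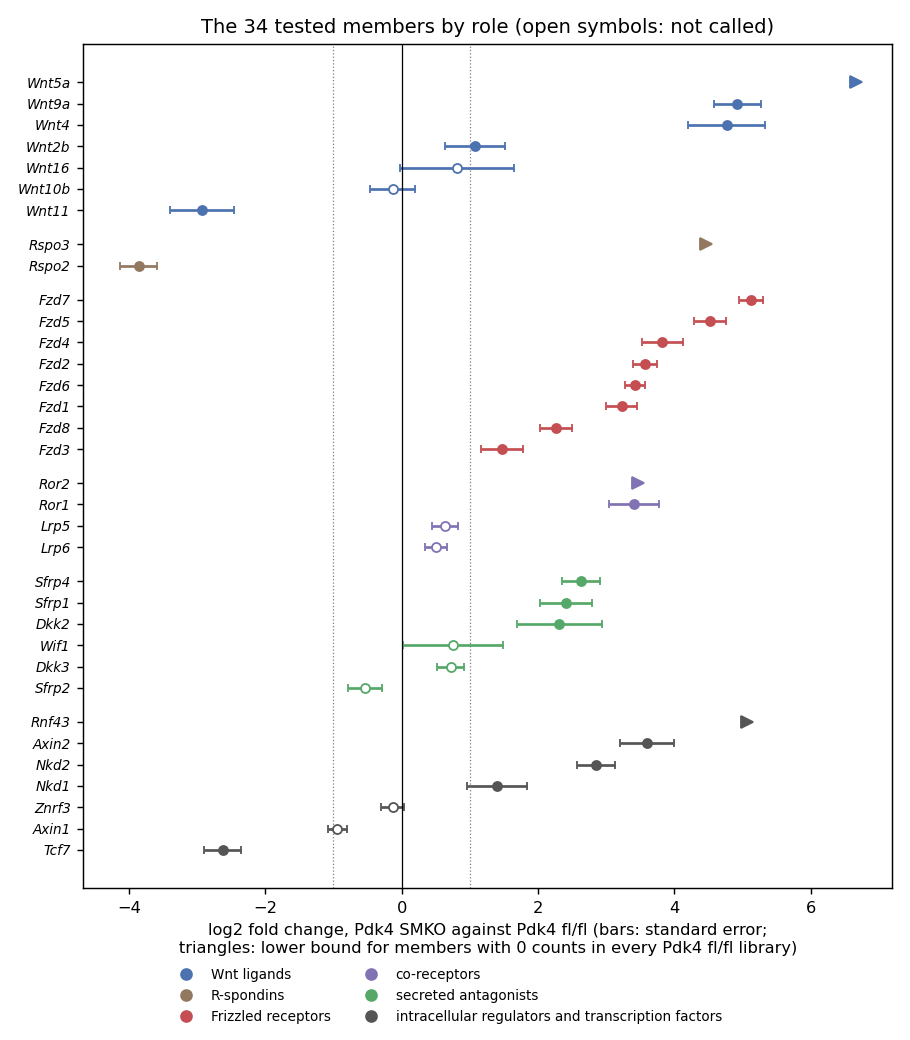
The log2 fold change of each of the 34 tested members, Pdk4SMKO against Pdk4fl/fl, grouped by role (3 libraries per genotype). Bars give the standard error (SE) derived from the test. Dotted lines mark a fold change of 2 and open symbols members that were not called. Triangles mark *Wnt5a*, *Rspo3*, *Ror2* and *Rnf43*, which had no count in any Pdk4fl/fl library and are drawn at a lower bound. The 8 Frizzled receptors lie between 1.47 and 5.12, and *Wnt11*, *Rspo2* and *Tcf7* lie below -2.

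Sequences before the transcription start are shown for 4 members whose levels changed: *Wnt4* and *Fzd7*, a ligand and a receptor that rose, *Axin2*, a gene that Wnt signals induce in many tissues, and *Wnt11*, the ligand that fell. Each is the 250 bases before the start, from the RefSeq annotation of GRCm38.p6 on the plus strand, at chr4:137277385-137277634 for *Wnt4*, chr1:59481897-59482146 for *Fzd7*, chr11:108920099-108920348 for *Axin2* and chr7:98834862-98835111 for *Wnt11*. Capitals mark the GC box (GGGCGG on either strand) and, in *Wnt11* alone among these, the TCF/LEF letters (CTTTGAT or CTTTGAA on either strand), which there adjoin a GC box. *Wnt11* has another start, and the start with more GC boxes is shown. The 300 bases around the other start (chr7:98838595-98838894) held 1 GC box and no TCF/LEF letters.
Wnt4: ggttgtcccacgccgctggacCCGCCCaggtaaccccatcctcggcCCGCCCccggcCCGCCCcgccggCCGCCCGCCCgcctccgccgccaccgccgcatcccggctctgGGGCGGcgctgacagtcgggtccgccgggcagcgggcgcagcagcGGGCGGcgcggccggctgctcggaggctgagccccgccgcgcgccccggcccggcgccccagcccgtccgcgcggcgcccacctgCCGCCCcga
Fzd7: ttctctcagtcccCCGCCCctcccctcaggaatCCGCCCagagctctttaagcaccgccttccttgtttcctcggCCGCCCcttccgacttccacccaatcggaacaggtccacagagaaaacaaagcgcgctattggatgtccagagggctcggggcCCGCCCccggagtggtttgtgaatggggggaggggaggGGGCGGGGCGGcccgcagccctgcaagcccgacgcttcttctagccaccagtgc
Axin2: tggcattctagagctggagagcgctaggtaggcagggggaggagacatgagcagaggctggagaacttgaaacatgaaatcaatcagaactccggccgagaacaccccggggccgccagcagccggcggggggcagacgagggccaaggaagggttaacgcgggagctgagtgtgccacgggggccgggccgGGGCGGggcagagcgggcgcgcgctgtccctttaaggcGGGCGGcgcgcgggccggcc
Wnt11: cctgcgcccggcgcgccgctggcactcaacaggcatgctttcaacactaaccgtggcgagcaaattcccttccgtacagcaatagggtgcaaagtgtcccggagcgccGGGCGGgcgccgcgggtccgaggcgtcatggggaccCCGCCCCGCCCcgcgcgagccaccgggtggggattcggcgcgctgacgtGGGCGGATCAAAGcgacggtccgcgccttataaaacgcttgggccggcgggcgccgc
The stretch of *Wnt4* held 8 GC boxes, that of *Fzd7* 6, that of *Wnt11* 4 and that of *Axin2* 2. The reference held windows of 300 bases, 250 before and 50 after the start, for 36 of the 54 members, 44 windows in all because some genes have several starts. A GC box was found in 31 of these 44 windows (70.5%) against 35.7% of the 32851 windows of all genes. The median share of G and C was 66.5% against 52.7%. The windows of all genes were not chosen by gene type, whereas the members are all protein-coding, so the sets are unlike. The TCF/LEF letters were found in 3 of the 44 (6.82%) and in 8.65% of all windows. These were the windows of *Dkk1*, *Wnt5b* and *Wnt11*, where the letters began 117, 71 and 51 bases upstream of the start. None of the 15 windows of higher members or the 4 of members not called held them. Of the windows of lower members 1 of 4 did, and of those of untested members 2 of 21. These windows are too few to compare the classes. The windows are a description of letters near the start, and sites farther away were not searched.

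The Wnt ligands changed in both directions. Of 19 ligand genes, 7 were tested, and 4 of these (*Wnt4*, *Wnt9a*, *Wnt5a* and *Wnt2b*) were higher, 1 (*Wnt11*) was lower and *Wnt16* and *Wnt10b* were not called. *Wnt4*, a ligand that can act with or without β-catenin (MGP_C57BL6NJ_G0029402), had 1.40, 2.25 and 2.27 CPM in the Pdk4fl/fl libraries and 16.4, 80.9 and 65.1 CPM in the Pdk4SMKO libraries. Every Pdk4SMKO library was above every Pdk4fl/fl library, and Pdk4SMKO replicate 1 was well below the other two. The means were 1.97 ± 0.497 and 54.1 ± 33.6 CPM (SD, n = 3 each), a log2 fold change of 4.77 (SE 0.57, edgeR adjusted p = 2.45e-05). *Wnt9a*, known from joint and blood development, had 0.600, 0.879 and 0.605 CPM against 31.0, 17.8 and 16.0 CPM. Here Pdk4SMKO replicate 1 was the highest library, and the log2 fold change was 4.92 (SE 0.35, edgeR adjusted p = 6.14e-07).

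*Wnt5a*, the ligand most used as the example of signalling without β-catenin (MGP_C57BL6NJ_G0021479), had no count in any Pdk4fl/fl library and 15.4, 23.9 and 20.5 CPM in the Pdk4SMKO libraries. Against a floor of 3 counts in each Pdk4fl/fl library it was at least 101-fold higher (edgeR adjusted p = 4.57e-07). Its span overlaps that of *Gm2670*, a gene with 21 counts over the 6 libraries. *Wnt11*, a ligand of cell movement and heart development, went the other way, from 1.40, 2.36 and 1.36 CPM to 0.307, 0.149 and 0.196 CPM. The genotypes did not overlap, and the log2 fold change was -2.93 (SE 0.47, edgeR adjusted p = 0.000214). The highest level of *Wnt11* was thus low in either genotype.

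The other ligands were near the floor or did not separate the genotypes. *Wnt10b*, a ligand that holds back fat cell formation, had 1.60, 2.58 and 1.89 CPM in Pdk4fl/fl and 1.49, 2.04 and 2.06 CPM in Pdk4SMKO libraries, overlapping ranges with a log2 fold change of -0.13 (SE 0.33, edgeR adjusted p = 0.730). *Wnt16* had 2.07, 1.65 and 0.984 CPM against 0.0878, 4.53 and 3.78 CPM, so a lone library, Pdk4SMKO replicate 1, lay below all Pdk4fl/fl libraries and the other two above them. Its log2 fold change of 0.82 (edgeR adjusted p = 0.385) was 1.40 without that library (edgeR adjusted p = 0.00418), which would be called. *Wnt2b* was called at a log2 fold change of 1.07 (edgeR adjusted p = 0.0426), with levels of at most 2.04 CPM, and the call was lost with DESeq2 (adjusted p = 0.0964), without the filter (0.0556) and when Pdk4fl/fl replicate 1, 2 or 3 or Pdk4SMKO replicate 2 was left out (0.0615 to 0.218).

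Among the 12 ligand genes that did not pass the filter, *Wnt2* had no count in Pdk4fl/fl libraries and 8, 20 and 14 counts in Pdk4SMKO libraries, at least 3.44-fold higher against the floor. *Wnt5b*, *Wnt10a* and *Wnt1* had between 0 and 19 counts in a library with overlapping genotypes, and the span of *Wnt5b* overlaps that of *Fbxl14*, which had 1849 counts over the 6 libraries. *Wnt7b* had 12, 3 and 3 counts in the Pdk4SMKO libraries and none in the others. *Wnt7a*, *Wnt6*, *Wnt3*, *Wnt8b* and *Wnt8a* had no count in Pdk4fl/fl libraries and at most 6 in a Pdk4SMKO library, and *Wnt3a* and *Wnt9b* had none in any library. Of 4 pairs of ligand genes less than 200 kb apart in the table, *Wnt9a* has *Wnt3a*, which had no count, at a distance of 17.6 kb, and *Wnt10b* has *Wnt1* at 23.1 kb. The other pairs, *Wnt6* with *Wnt10a* and *Wnt9b* with *Wnt3*, held no tested gene.

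Levels were compared between ligands as RPKM, the CPM per kilobase of the gene length given in the table. The summed RPKM of the 19 Wnt genes was 2.93 ± 0.583 in Pdk4fl/fl and 26.7 ± 7.60 in Pdk4SMKO cultures (SD, n = 3 each). In Pdk4fl/fl libraries the largest mean share of this sum belonged to *Wnt10b* (29.5%), followed by *Wnt4* (16.4%) and *Wnt11* (15.9%), and the shares of *Wnt4* (14.4%, 15.5% and 19.3%) and *Wnt11* (16.2%, 18.4% and 13.0%) overlapped. No Wnt gene had more than 47 counts in a Pdk4fl/fl library, so the shares there rest on few counts. In Pdk4SMKO libraries the share of *Wnt10b* was 3.07%, with its own level overlapping that of Pdk4fl/fl. *Wnt4* held 21.5%, 58.5% and 57.2% and *Wnt9a* held 49.99%, 15.9% and 17.4%, so *Wnt9a* led in Pdk4SMKO replicate 1 and *Wnt4* in the other two. *Wnt5a* was steadier, at 17.4%, 15.0% and 15.6%.

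**Figure D2:**
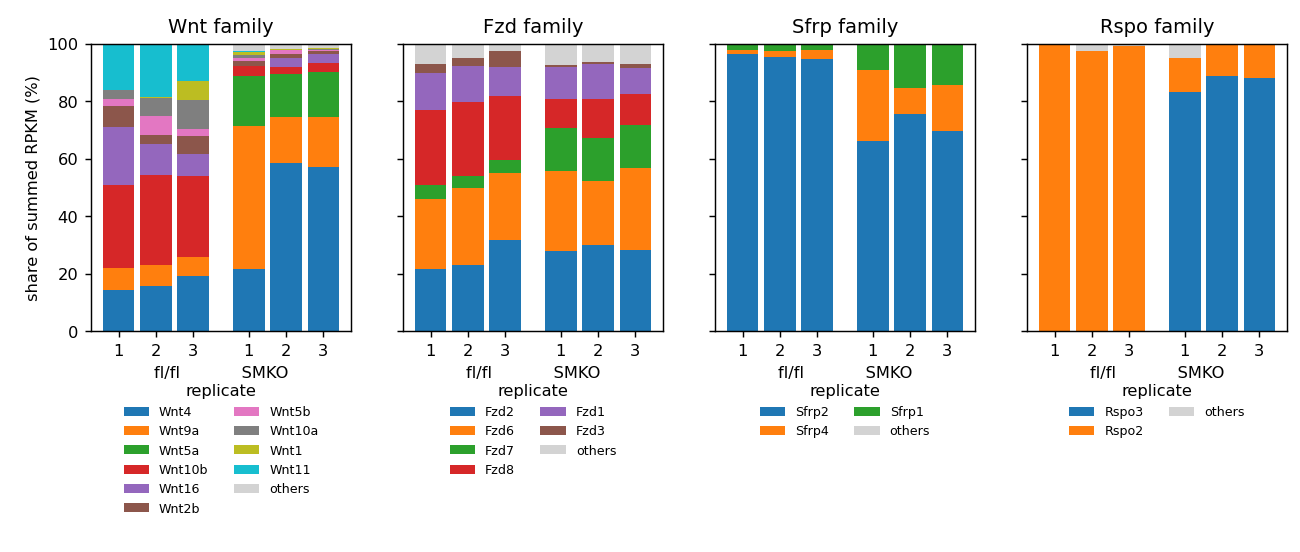
Share of each gene in the summed RPKM of its family (Wnt, Fzd, Sfrp and Rspo panels), one bar per library, with genes under 5% in every library drawn together in grey. *Wnt10b*, *Wnt4* and *Wnt11* hold the largest mean shares in the Pdk4fl/fl bars, and *Wnt4*, *Wnt9a* and *Wnt5a* in the Pdk4SMKO bars. *Fzd7* widens while *Fzd8* narrows, and *Rspo2* gives way to *Rspo3*.

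The R-spondins exchanged places. *Rspo2* (MGP_C57BL6NJ_G0022230), known for limb and lung development, had 9.47, 8.73 and 11.7 CPM in Pdk4fl/fl and 0.615, 0.796 and 0.638 CPM in Pdk4SMKO libraries. It was 14.6-fold lower by the means, with a log2 fold change of -3.86 (SE 0.27, edgeR adjusted p = 6.17e-07), and no library broke the order. *Rspo3* (MGP_C57BL6NJ_G0017512), an R-spondin of the vasculature, had no count in Pdk4fl/fl libraries and 3.69, 5.37 and 3.97 CPM in Pdk4SMKO libraries, at least 22.0-fold higher against the floor (edgeR adjusted p = 8e-06). *Rspo2* held between 97.3% and 100% of the summed R-spondin RPKM in Pdk4fl/fl libraries and *Rspo3* between 83.3% and 88.8% in Pdk4SMKO libraries. *Rspo1* had at most 4 counts in a library and *Rspo4* none.

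**Figure D3:**
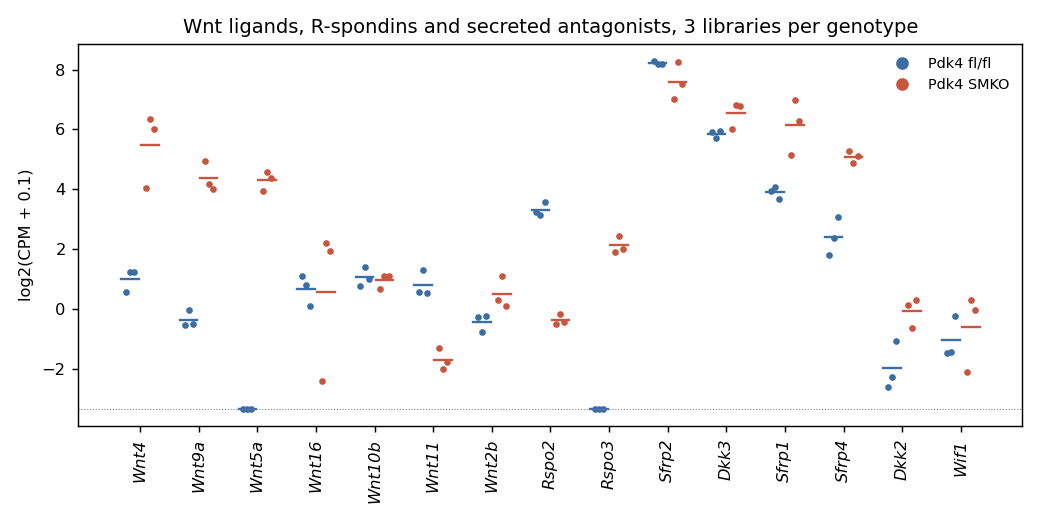
Level of each tested Wnt ligand, R-spondin and secreted antagonist as log2(CPM + 0.1), with 1 point per library, lines at the means of these log2 values and the dotted line at 0 CPM. *Wnt4*, *Wnt9a*, *Wnt5a* and *Rspo3* lie higher in all 3 Pdk4SMKO libraries and *Wnt11* and *Rspo2* lower, while the points of *Sfrp2* overlap.

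The tested Frizzled receptors rose together. All 8 tested members were higher in Pdk4SMKO cultures, with no overlap between genotypes, log2 fold changes from 1.47 (*Fzd3*) to 5.12 (*Fzd7*) and adjusted p-values of at most 0.00126. Over all genes tested, 32.8% were higher and 81.8% did not overlap between the genotypes, so the lack of overlap is common. Each of the 8 was called under every scaling and with every library left out in turn. *Fzd4*, with 25, 26 and 8 counts in the Pdk4fl/fl libraries, passed the filter only with its Pdk4SMKO libraries, where it was high. It was too low to be tested with at least 10 counts in every library. *Fzd7* (MGP_C57BL6NJ_G0016457), a receptor of stem cells and early development, had 4.00, 3.29 and 3.03 CPM in Pdk4fl/fl and 105, 140 and 117 CPM in Pdk4SMKO libraries. Its means were 3.44 ± 0.502 and 120 ± 17.7 CPM (SD, n = 3 each), 35.0-fold apart, with a log2 fold change of 5.12 (SE 0.18, edgeR adjusted p = 1.45e-08). *Fzd7* is a gene without introns, as are *Fzd1*, *Fzd2*, *Fzd8*, *Fzd9* and *Fzd10* in the table.

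*Fzd5*, needed in the intestine and the eye, had 2.67, 2.36 and 1.44 CPM against 41.5, 55.3 and 54.2 CPM (log2 fold change 4.53, SE 0.23). *Fzd4*, the receptor of the retinal vasculature, had 1.67, 1.43 and 0.605 CPM against 18.3, 19.7 and 15.6 CPM (3.82, SE 0.30). Both rose from levels at which few Pdk4fl/fl reads were counted. *Fzd2* had 14.7, 14.7 and 17.6 CPM against 155, 228 and 177 CPM (3.57, SE 0.18). *Fzd6*, which acts in planar cell polarity in skin, had 18.6, 19.4 and 14.8 CPM against 173, 192 and 202 CPM (3.42, SE 0.15). These 2 receptors were the most abundant Frizzled transcripts in Pdk4SMKO cultures, at a mean RPKM of 50.9 and 45.7, where their libraries overlapped.

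*Fzd1* had 10.0, 9.22 and 6.51 CPM in Pdk4fl/fl and 70.5, 105 and 66.6 CPM in Pdk4SMKO libraries (log2 fold change 3.23, SE 0.23). *Fzd8* had 16.3, 15.1 and 11.4 CPM against 50.7, 94.2 and 61.0 CPM (2.26, SE 0.24). *Fzd3*, a receptor of axon guidance, had 2.40, 1.92 and 3.41 CPM against 5.22, 7.02 and 9.08 CPM (1.47, SE 0.31). These 3 receptors moved least of the family, and their libraries still did not overlap. Of the others, *Fzd9* had 16, 7 and 1 counts against 5, 1 and 2 and was not tested, and *Fzd10* had none.

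The summed RPKM of the Frizzled genes was 17.1 ± 1.72 in Pdk4fl/fl and 177 ± 28.6 in Pdk4SMKO cultures (SD, n = 3 each), a ratio of 10.4. The make-up of the sum changed as well. *Fzd2*, *Fzd6* and *Fzd8* held 25.4%, 24.9% and 24.8% of it in Pdk4fl/fl cultures. In Pdk4SMKO cultures *Fzd2* (28.7%) and *Fzd6* (26.2%) held like shares, that of *Fzd8* was 11.4%, and that of *Fzd7* was 15.1% against 4.44% in Pdk4fl/fl. The share of *Fzd8* was smaller although its own level rose.

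**Figure D4:**
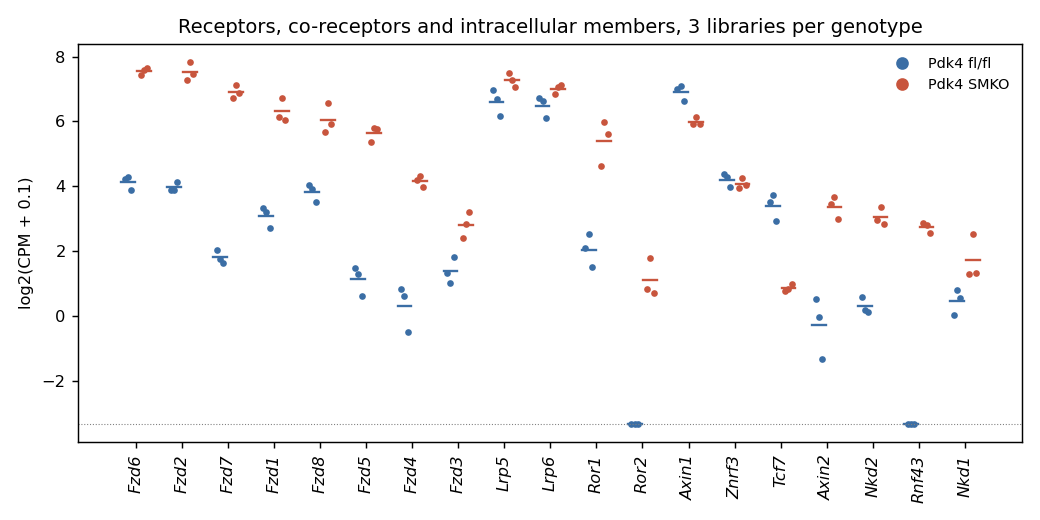
Level of each tested Frizzled receptor, co-receptor and intracellular member as log2(CPM + 0.1), with 1 point per library and lines at the means of these log2 values. All Frizzled points of Pdk4SMKO lie above those of Pdk4fl/fl, *Lrp5* and *Lrp6* differ by less than a fold of 2, and *Tcf7* is the member that is lower past the threshold.

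Co-receptors of the β-catenin branch moved little, and the ROR receptors rose. *Lrp5*, a co-receptor known from bone, had 125, 103 and 71.7 CPM in Pdk4fl/fl and 179, 154 and 134 CPM in Pdk4SMKO libraries. *Lrp6*, its close relative, had 105, 98.3 and 68.9 CPM against 115, 133 and 139 CPM. Neither overlapped between genotypes, and neither reached a fold change of 2, at log2 fold changes of 0.64 (SE 0.20, edgeR adjusted p = 0.0124) and 0.51 (SE 0.17, edgeR adjusted p = 0.0164). With library size alone both passed it (1.24 and 1.11). *Ror1*, a receptor tyrosine kinase that binds WNT5A, had 4.20, 5.66 and 2.72 CPM against 24.6, 62.8 and 48.6 CPM, a log2 fold change of 3.41 (SE 0.37, edgeR adjusted p = 1.16e-05). *Ror2*, the other receptor of this pair, had no count in Pdk4fl/fl libraries and 1.67, 3.38 and 1.52 CPM in Pdk4SMKO libraries, at least 11.1-fold higher against the floor (edgeR adjusted p = 0.000103). Both ROR genes were thus higher in every Pdk4SMKO library.

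The secreted antagonists were led by *Sfrp2*, which was not called. *Sfrp2*, an SFRP that fibroblasts and mesenchymal cells secrete, had 309, 293 and 290 CPM in Pdk4fl/fl and 128, 303 and 185 CPM in Pdk4SMKO libraries. Pdk4SMKO replicate 2 lay within the range of Pdk4fl/fl and the other two below it, and the log2 fold change was -0.53 (SE 0.25, edgeR adjusted p = 0.0749). Without that library it was -0.92 (edgeR adjusted p = 0.00115), still under a fold of 2, and with library size alone it was 0.06. *Sfrp1*, a related inhibitor, had 15.3, 16.9 and 12.7 CPM against 35.3, 126 and 78.0 CPM (log2 fold change 2.41, SE 0.38, edgeR adjusted p = 0.000192). *Sfrp4*, known from bone, had 3.40, 5.11 and 8.25 CPM against 39.0, 29.6 and 34.1 CPM (2.63, SE 0.28, edgeR adjusted p = 1e-05). Both were higher in every Pdk4SMKO library.

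*Dkk3*, a divergent member of the Dickkopf family, had 60.1, 52.2 and 61.0 CPM against 65.2, 111 and 109 CPM. Its genotypes did not overlap, but the log2 fold change of 0.72 (SE 0.20, edgeR adjusted p = 0.00630) was below a fold of 2, and it was 1.32 with library size alone. *Dkk2*, an LRP-binding antagonist, was called at levels of at most 1.13 CPM, with a log2 fold change of 2.31 (SE 0.63, edgeR adjusted p = 0.00622) that was 3.21 without Pdk4fl/fl replicate 3. *Wif1*, which binds Wnt proteins outside the cell, had 0.267, 0.275 and 0.757 CPM against 0.132, 1.14 and 0.883 CPM and was not called (log2 fold change 0.75, SE 0.73, edgeR adjusted p = 0.362). *Dkk1*, the best known LRP antagonist, had 1 count in all 6 libraries together, *Sfrp5* had at most 1 in a library, and *Dkk4* had none.

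In RPKM, the sum of the Sfrp genes was 145 ± 3.80 in Pdk4fl/fl and 133 ± 49.1 in Pdk4SMKO cultures (SD, n = 3 each), and *Sfrp2* held 95.4% and 70.5% of it. The Frizzled sum was below the Sfrp sum in all 3 Pdk4fl/fl libraries, at 18.5 against 149, 17.5 against 143 and 15.2 against 142 RPKM. It was above the Sfrp sum in all 3 Pdk4SMKO libraries, at 151 against 89.9, 208 against 187 and 171 against 123 RPKM. This order of transcript levels says nothing of protein. The Dkk sum, nearly all of it *Dkk3*, was 17.3 ± 1.48 and 28.6 ± 7.72 RPKM.

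Among the members inside the cell are several that Wnt signals through β-catenin induce in many tissues and that in turn restrain the pathway. *Axin2*, a scaffold of the complex that degrades β-catenin and the gene most used as a readout of the pathway (MGP_C57BL6NJ_G0019720), had 1.33, 0.879 and 0.303 CPM in Pdk4fl/fl and 10.8, 12.6 and 7.85 CPM in Pdk4SMKO libraries. Its log2 fold change was 3.60 (SE 0.40, edgeR adjusted p = 1.45e-05), and the libraries did not overlap. *Nkd2*, which binds Dishevelled and antagonises it, had 1.40, 1.04 and 0.984 CPM against 7.64, 10.2 and 7.11 CPM (2.85, SE 0.28, edgeR adjusted p = 6.49e-06). *Nkd1*, its paralogue, had 0.933, 1.65 and 1.36 CPM against 2.37, 5.72 and 2.40 CPM (1.40, SE 0.44, edgeR adjusted p = 0.0132). The call of *Nkd1* was lost without Pdk4fl/fl replicate 1 (edgeR adjusted p = 0.0513) or Pdk4SMKO replicate 2 (0.0830).

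The ubiquitin ligases that remove Frizzled receptors parted. *Rnf43* had no count in Pdk4fl/fl libraries and 7.16, 6.87 and 5.84 CPM in Pdk4SMKO libraries, at least 33.6-fold higher against the floor (edgeR adjusted p = 2.06e-06). *Znrf3*, which has the same role, had 20.6, 19.3 and 15.7 CPM against 15.5, 18.9 and 16.3 CPM, overlapping ranges with a log2 fold change of -0.13 (SE 0.16, edgeR adjusted p = 0.474). In RPKM *Znrf3* (2.47 and 2.26) remained above *Rnf43* (0 and 1.19) in the means of both genotypes. *Axin1*, the constitutive counterpart of *Axin2*, had 128, 138 and 99.4 CPM against 60.1, 69.7 and 60.2 CPM. All Pdk4SMKO libraries were lower and the log2 fold change of -0.94 (SE 0.15, edgeR adjusted p = 0.000170) did not reach a fold of 2, though it did without Pdk4fl/fl replicate 3 (-1.08) or Pdk4SMKO replicate 2 (-1.005).

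*Tcf7*, which encodes the transcription factor TCF1 (MGP_C57BL6NJ_G0018675), fell from 11.3, 13.1 and 7.57 CPM to 1.62, 1.69 and 1.86 CPM. The genotypes did not overlap, and the log2 fold change was -2.63 (SE 0.27, edgeR adjusted p = 8.06e-06). Its span holds 2 other counted genes, the larger with 107 counts over the 6 libraries, and the use of strand in the counting is not given in the sources used here. *Lef1*, the related factor, had 1 count in 1 library of each genotype and none in the others. Of the 8 feedback targets (*Axin2*, *Lef1*, *Tcf7*, *Nkd1*, *Nkd2*, *Znrf3*, *Rnf43* and *Wif1*), 4 were higher, 1 was lower, 2 were not called and 1 was not tested. The 5 called of 7 tested stand beside the 59.3% called of all genes tested, 32.8% as higher and 26.5% as lower. *Rnf43*, without a count in Pdk4fl/fl libraries, passed the filter through Pdk4SMKO alone and could only be higher. *Axin2*, with 20, 16 and 4 counts in the Pdk4fl/fl libraries, also passed it only with its Pdk4SMKO libraries.

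The Pdk4SMKO libraries were ordered unevenly over the tested members. Over the 34 tested members, Pdk4SMKO replicate 1 was the lowest Pdk4SMKO library for 22 and replicate 2 the highest for 23. In Pdk4fl/fl, over the 30 with a count there, replicate 3 was the lowest for 18 and replicate 1 the highest for 12. Pdk4SMKO replicate 1 was the highest Pdk4SMKO library for 5 members, *Wnt9a*, *Wnt11*, *Lrp5*, *Sfrp4* and *Rnf43*. The same counts over all genes tested were not made, so nothing particular to the members is read from this order.

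Other genes of the pathway were taken from a list of 115 that the rule left out, of which 113 were found, 99 were tested, 36 were higher and 22 were lower. The 58.6% called is near the 59.3% of all genes tested, of which 32.8% were higher and 26.5% lower. With library size alone, 46 were higher and 12 lower, against 6184 and 2390 of all genes. The counts by role stand beside the same background, and nothing particular to a role is read from them. Of 5 tested genes for the secretion of ligands, 2 were higher and 2 lower. *Porcn*, which attaches the lipid to Wnt proteins and is X-linked, had 3.67, 2.80 and 6.96 CPM in Pdk4fl/fl and 7.46, 12.6 and 13.0 CPM in Pdk4SMKO libraries (log2 fold change 1.31, edgeR adjusted p = 0.00542), and *Gpc4*, an X-linked glypican that holds ligands at the cell surface, rose from 38.6 ± 4.42 to 169 ± 16.7 CPM (SD, n = 3 each). *Wls*, the carrier of Wnt proteins to the surface, had 498 ± 44.9 and 417 ± 46.2 CPM and was not called. Of 2 tested antagonists beyond the members, *Apcdd1* was higher (log2 fold change 3.28) and *Frzb* was not called (0.28), and *Sost* had no count.

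Of 10 further receptors tested, 4 were higher and none was lower. *Lgr5*, an R-spondin receptor and stem cell marker, had 3 counts in Pdk4fl/fl replicate 1 and none in the other two, and 13.2, 23.6 and 17.4 CPM in Pdk4SMKO libraries. *Lgr4*, the R-spondin receptor with the wider expression, had 44.0 ± 4.10 and 28.0 ± 1.28 CPM (log2 fold change -0.65, edgeR adjusted p = 0.000880), below a fold of 2, and *Kremen1* was not called (0.26).

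Inside the cell, 4 of 23 tested cytoplasmic transducers were higher and 8 lower. The lower gene with the largest change was *Dvl2*, a Dishevelled that relays the signal from Frizzled, at 962 ± 66.6 CPM in Pdk4fl/fl and 38.6 ± 2.88 CPM in Pdk4SMKO cultures (SD, n = 3 each, log2 fold change -4.64). The span of *Dvl2* overlaps that of *Acadvl*, which had 5122 counts over the 6 libraries. Its paralogues *Dvl1* and *Dvl3* had log2 fold changes of -2.60 and 1.84, so the 3 Dishevelled genes did not move alike. *Apc*, a scaffold of the degradation complex, had -1.54, whereas *Gsk3b* (0.03) and *Ctnnb1*, which encodes β-catenin (0.26, at 746 ± 38.1 and 891 ± 55.6 CPM), were not called. Among 19 tested nuclear partners, 4 were higher, with *Tle1*, a co-repressor of TCF factors, at 3.43, and 2 were lower, with *Tcf7l2* at -1.52. Of 23 tested genes of planar polarity and other arms that do not need β-catenin, 13 were higher and 4 lower, led by *Nfatc4*, a calcium-regulated transcription factor, at 0.887 ± 0.0922 and 77.0 ± 13.2 CPM. Of 17 tested direct target genes, 8 were higher and 6 lower, with *Cyr61*, a matricellular protein, at 47.3 ± 2.10 and 915 ± 50.5 CPM. The largest fall among them was that of *Fosl1*, at 389 ± 83.0 and 33.7 ± 10.2 CPM, so the direct targets did not move alike. The differences between roles, and from the background of 32.8% higher and 26.5% lower, were not tested.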

How the data were processed

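RNA was sequenced from 6 cultures of MASMCs, with the genotype taken from the labels. The table that the authors deposited holds unnormalized integer counts of reads for every gene and library. The submitters' processing notes name GRCm39, whereas the identifiers are those of the C57BL/6NJ annotation. The aligner, the counter and the use of strand are not given in the sources used here, and the methods and the labels name different library kits. The test was made with edgeR 4.0.16 under R 4.3.3 (filterByExpr, TMM, quasi-likelihood test on genotype, Benjamini-Hochberg adjustment over 14085 genes). Calls needed a log2 fold change of 1 or more in size beside an adjusted p under 0.05. CPM used TMM factors and RPKM the deposited gene length. Folds against 0 counts used a floor of 3 counts per library, which covers counting error only. For each gene an exact permutation test of 3 against 3 libraries cannot go below p = 0.1.

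Members and lists were chosen with earlier results of these data known. By rule, values in each library are given for tested members with at least 5 CPM in the higher genotype and for the feedback targets. In the pathway list the rule names, per role, the called gene with the largest change among those with at least 5 CPM in the higher genotype, with *Ctnnb1*, *Gsk3b*, *Wls*, *Porcn*, *Lgr4*, *Kremen1*, *Frzb* and *Sost*. The other ligands and antagonists near the floor, *Rspo3*, *Ror2*, the single marker genes, *Xist*, *Dvl1*, *Dvl3*, *Apc*, *Tcf7l2* and *Fosl1* were named after their values were seen. Pathway symbols *Cxxc4* and *Frat1* were not matched, and 3 were matched by an older symbol. Promoters came from RefSeq by symbol, because the table and that reference are of different assemblies. Alternatives were DESeq2 1.42.0, scaling by RLE, by upper quartile or by library size, other filters and thresholds, protein-coding rows alone, the replicate number as a block, and each library left out in turn.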

Additional observations from a re-analysis of the deposited data

How the results depend on the processing

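Over the alternatives, 20 to 25 members were higher and 2 to 4 lower, except that 13 were higher with at least 10 counts in every library, a filter under which 22 members were tested and 10 of the 25 called members were not. With each library left out in turn, the members counted as higher were 20 to 24 and those as lower 3 to 4, and in the pathway list 34 to 37 and 21 to 24. The pathway genes counted as lower were 12 with library size alone, which moved the median of all genes from 0.12 to 0.72. Of the recomputed fold changes of tested members, 442 kept their direction and their side of the threshold, 9 (of *Wnt2b* and *Nkd1*) lost the call, 6 (of *Wnt16*, *Lrp5*, *Lrp6*, *Dkk3* and *Axin1*) gained one and 7 turned. The 7 that turned were uncalled values: *Wnt10b* was 0.081 with upper-quartile factors, 0.48 with library size alone and from -0.28 to 0.11 with each library left out, above 0 without Pdk4fl/fl replicate 2 or Pdk4SMKO replicate 1 (0.02), *Znrf3* was 0.079 with upper-quartile factors and 0.47 with library size alone (adjusted p = 0.0273), and *Sfrp2* was 0.064 with library size alone. The cause was not tested. Same-numbered libraries had deviations correlated at 0.04, 0.06 and 0.18, so the numbers were not taken as pairs. With the replicate number as a block, 21 members were higher and 3 lower, and *Wnt2b* alone lost its call (adjusted p = 0.0949). Depth limits the members near the floor, from 0.132 to 0.227 CPM.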
